A study of Mus musculus with 246 samples.

Results

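Perineuronal nets are condensed extracellular matrix that wraps the soma and proximal dendrites of certain neurons, most often fast-spiking interneurons that express the calcium-binding protein parvalbumin. The 10 genes described here are 9 net components and Pvalb, which encodes parvalbumin. They were chosen by name, and all 10 were found among the 56691 genes of the deposited count table. Their transcripts were followed across 6 brain regions of 41 outbred adult male CD1 mice (1 library for each region and mouse, from a punch pooled over both hemispheres). The mice came from 3 conditions. Ctrl_Veh pups were raised with standard bedding by dams given vehicle. ELA_Veh pups were raised under limited bedding and nesting, a model of early life adversity, from P02 to P09 by dams given vehicle. ELA_SAFit2 pups were raised under the same adversity by dams that received SAFit2, an inhibitor of the stress-related chaperone FKBP51, in a slow-release gel at P02, so that pups were exposed through the milk. No group received SAFit2 without adversity. In the NoInteraction set, tissue was taken without a staged social encounter (7 mice per condition). In the SocialInteraction set, it was taken after 10 minutes with an unfamiliar mouse (6 Ctrl_Veh, 7 ELA_Veh and 7 ELA_SAFit2 mice). Litters were assigned to conditions as a whole and the litter of each mouse is not in the labels, so mice of a litter may share a group. By the paper's account, mice of different conditions also shared cages from weaning. Its methods place tissue collection after phenotyping in the social box, a living arena for groups. NoInteraction therefore does not mean socially naive.

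In a net, long chains of hyaluronan are made and held at the cell surface by hyaluronan synthases such as Has3. Lecticans, the chondroitin sulfate proteoglycans aggrecan (Acan), brevican (Bcan), neurocan (Ncan) and versican (Vcan), bind hyaluronan with one end. Link proteins (Hapln1, Hapln2 and Hapln4) lock that contact, and tenascin-R (Tnr) cross-links the other ends of the lecticans. Nets mature during postnatal critical periods and limit later plasticity, and aggrecan is the lectican most closely tied to nets around parvalbumin cells. Much brevican and neurocan also lies in the diffuse matrix, and Hapln2 belongs to the matrix at nodes of Ranvier in myelinated tracts.

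The genes of 3 lecticans lie next to a member link protein gene in the mouse genome (GENCODE M21, GRCm38), with 0 protein-coding genes between them. Bcan (chromosome 3, 87987531 to 88000230, minus strand) and Hapln2 (88021750 to 88027583, minus strand) are 21.5 kb apart. Ncan (chromosome 8, 70093085 to 70120873, minus strand) and Hapln4 (70083457 to 70090862, plus strand) are 2.2 kb apart. Vcan (chromosome 13, 89655312 to 89742509, minus strand) and Hapln1 (89539796 to 89611652, plus strand) are 43.7 kb apart. Acan (chromosome 7, 79053483 to 79115099, plus strand) neighbours Hapln3, which is not a member. The remaining members are Tnr (chromosome 1, 159523769 to 159931729, plus strand), Has3 (chromosome 8, 106870242 to 106884566, plus strand) and Pvalb (chromosome 15, 78191114 to 78206400, minus strand). Values below are the total of each gene, exons of all its transcripts together.

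The promoter windows of Acan and Tnr are shown because these were the only members whose level passed the test after social interaction (below). RefSeq (GRCm38.p6) supplied the windows, the 250 bases before the annotated start, with CpG dinucleotides in capitals. The RefSeq start of Acan lies before the GENCODE start given above.
Acan, chr7:79052976-79053225, plus strand: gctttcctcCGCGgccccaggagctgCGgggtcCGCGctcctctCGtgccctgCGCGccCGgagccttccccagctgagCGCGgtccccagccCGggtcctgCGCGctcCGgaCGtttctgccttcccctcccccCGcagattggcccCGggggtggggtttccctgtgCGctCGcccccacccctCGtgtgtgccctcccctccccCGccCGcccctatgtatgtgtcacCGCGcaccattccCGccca
Tnr, chr1:159523519-159523768, plus strand: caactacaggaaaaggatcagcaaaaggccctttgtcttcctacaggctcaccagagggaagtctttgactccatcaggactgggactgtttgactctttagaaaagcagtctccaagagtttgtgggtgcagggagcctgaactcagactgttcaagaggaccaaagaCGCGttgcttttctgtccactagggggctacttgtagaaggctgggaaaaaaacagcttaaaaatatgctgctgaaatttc
The Acan window is GC-rich and holds 26 CpG dinucleotides (74.4% G or C, against a median of 52.4% and 6 CpG over 32851 windows of this length), and that of Tnr is not (46.8%, 2 CpG). Windows were found for 8 of 10 members, with Hapln4 and Has3 not among them. They were searched on both strands for the letters of 3 activity-related motifs, the cAMP response element TGACGTCA, the AP-1 motif TGAGTCA and the EGR motif GCGTGGGCG, which do not overlap in these letters. The 3 were found in 0 of the 9 windows of these 8 members, and they occur in 1.55%, 4.46% and 0.536% of all windows.

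Total counts per library lay between 20804219 and 43351397 (median 28844763). Levels are counts per 1000000 (CPM) after TMM scaling over all libraries. Each punch was checked against region markers. Summed striatal markers (such as Drd1 and Adora2a) were highest in the nucleus accumbens (Nacc; median 3880 CPM) and thalamic markers in the dorsomedial thalamus (DMT; median 3120 CPM). Hippocampal markers were less distinct, with a median of 982 CPM in the ventral hippocampus and 847 in the Nacc. Striatal markers reached 1390 CPM in medial prefrontal and in anterior cingulate punches (medians 244 and 265), while the lowest Nacc library held 1340. Thalamic markers reached 587 CPM in the ventral hippocampus (median 176). Punches of the basolateral amygdala (BLA) also held striatal markers (521 to 3960 CPM, median 1400) and, unevenly, choroid plexus markers (7.38 to 5580 CPM). From genes that differ between individual mice, 12 Nacc libraries matched another mouse than the one on their label, 6 of them in the NoInteraction set, and 0 did elsewhere. These were kept under their labels, so their condition and set may be wrong as well. The anterior cingulate cortex (ACC) library of mouse 89 (Ctrl_Veh, SocialInteraction) stood furthest from its region (median absolute log2 deviation over genes 0.289, against a median of 0.068 for ACC libraries), and the Nacc library of mouse 69 (0.206) and the DMT library of mouse 31 (0.18) came next. In bulk tissue, fewer cells of a type and less RNA per cell cannot be told apart.

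All 10 members passed the filter on low counts in every region, with the least abundant at no fewer than 20 counts in any library. Levels of different genes were compared per kb of exon. By the mean over regions, Bcan was the most abundant member (48.6 CPM per kb), followed by Hapln4 (31.5), Ncan (30.2), Tnr (27.5) and Pvalb (17.5). Hapln2 (6.71), Hapln1 (3.24) and Vcan (1.73) were intermediate, and Acan (0.473) and Has3 (0.449) were lowest. Aggrecan transcripts therefore formed a small part of the lectican pool. Their share of the 4 lecticans per kb ranged from 0.305% ± 0.0877 (SD, n = 41) in the DMT to 0.783% ± 0.159 in the ventral hippocampus (vHipp). Bcan and Ncan made up most of the pool, with Vcan at 1.99% to 2.56% by regional mean, and the share of Bcan and of Ncan differed between regions. In the medial prefrontal cortex (mPFC), Bcan made up 50.6% ± 2.51 and Ncan 46.7% ± 2.70, and in the DMT Bcan made up 67.6% ± 2.60 and Ncan 30.1% ± 2.61.

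**Figure D1:**
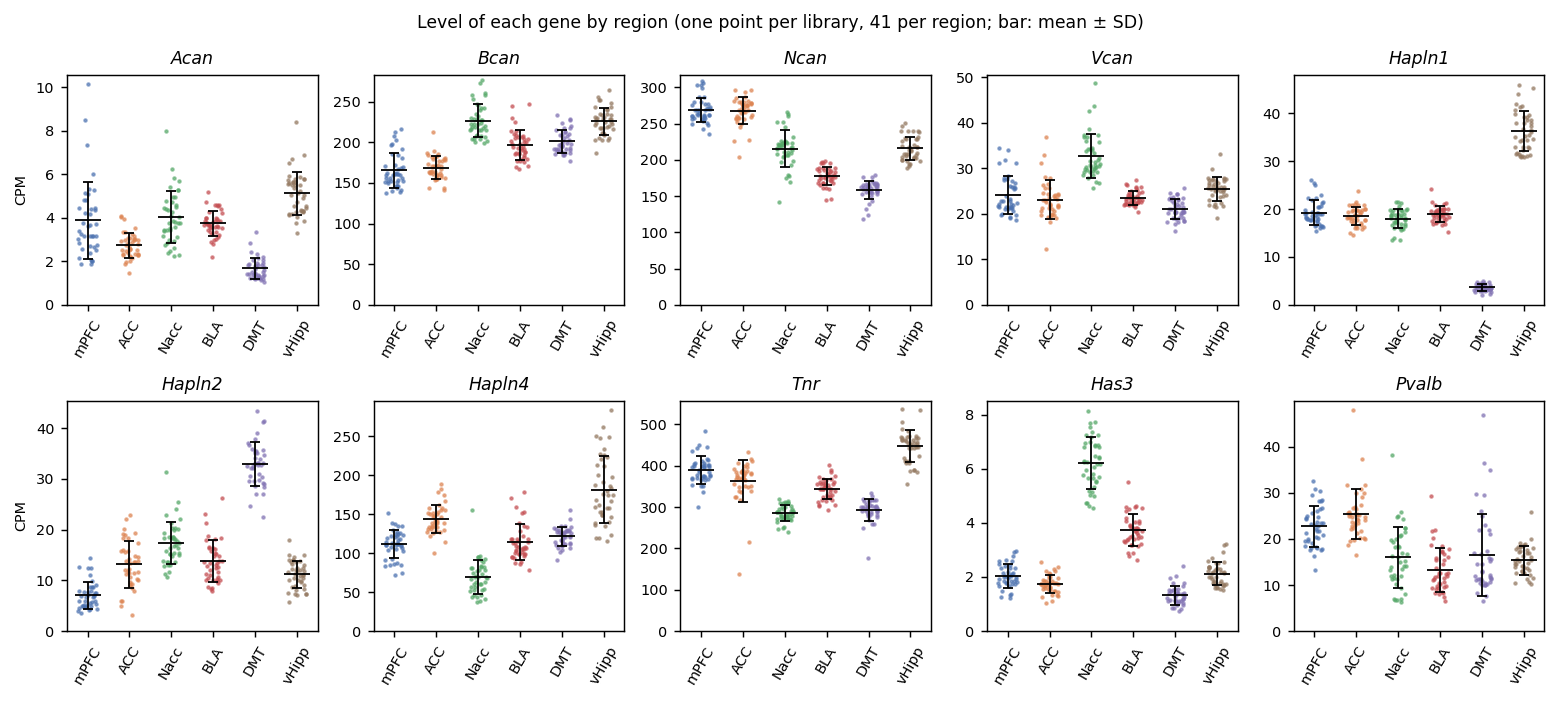
Level of each of the 10 genes (CPM, linear axis from 0) in 6 regions, with a point per library (41 per region) and a bar for the mean ± SD. Hapln1 points of the DMT (2.03 to 4.89 CPM) lie below all others, Has3 is highest in the Nacc, and single libraries stand out in Acan (mPFC) and Pvalb (DMT).

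Regions were compared with the mouse as a block, since all 6 punches came from the same mice, and a difference was called at an adjusted p below 0.05 and at least 2-fold. Among the members, 23 of 150 tests were called, where 14.3% of all gene tests were. By adjusted p alone 125 of 150 were, where 76.8% of all gene tests were, so most members differed between most regions, as most genes did. The median absolute log2 difference was 0.41 for members and 0.24 for all genes. Below, neighbours in the order of regional means are said to differ at an adjusted p below 0.05 alone. That test concerns means, so the ranges of regions that differ can overlap. The 23 called differences fell on 5 genes, with 6 for Hapln1, 6 for Has3, 5 for Hapln2, 4 for Acan and 2 for Hapln4. The library numbers in the labels do not overlap between regions, so a region and any processing done by region cannot be told apart, while mice of both sets and all conditions alternate within a region.

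Among the lecticans, Acan had the strongest regional pattern. In the vHipp its level ran from 3.29 to 8.39 CPM (median 5.16), in the Nacc from 2.24 to 8.01 (median 3.82), in the mPFC from 1.86 to 10.1 (median 3.40), in the BLA from 2.20 to 5.20 (median 3.68), in the ACC from 1.46 to 4.07 (median 2.67) and in the DMT from 1.04 to 3.37 (median 1.52). The DMT was lowest and its range overlapped that of the vHipp only at the edge. The difference between DMT and vHipp was -1.63 on the log2 scale (SE 0.08). Neighbours in the middle of the order, Nacc and mPFC (log2 0.08, adjusted p = 0.307, edgeR) and mPFC and BLA (log2 0.02, adjusted p = 0.839, edgeR), did not differ by adjusted p. Ncan, a lectican that inhibits neurite growth, was highest in the cortical punches. Its median was 264 CPM in the mPFC (range 235 to 308) and 271 in the ACC (203 to 297), against 218 in the Nacc (142 to 266), 213 in the vHipp (188 to 251), 178 in the BLA (144 to 198) and 162 in the DMT (118 to 179). mPFC and ACC did not differ by adjusted p (log2 0.01, SE 0.02), nor did vHipp and Nacc (log2 0.00, SE 0.02). All other neighbours did.

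Bcan ran the other way at the top of its order. Nacc (200 to 277 CPM, median 223) and vHipp (187 to 265, median 226) were highest, DMT (177 to 234, median 198) and BLA (167 to 248, median 194) followed, and ACC (142 to 212, median 167) and mPFC (138 to 217, median 160) were lowest. The 2 regions of each of these steps did not differ by adjusted p, and each step down did (log2 0.17, SE 0.03, and 0.22, SE 0.03). Its fold from the highest to the lowest regional mean was 1.38, the smallest of the members. Vcan, a lectican also made by oligodendrocyte precursors, was highest in the Nacc (25.7 to 48.8 CPM, median 30.9) and lowest in the DMT (16.3 to 25.6, median 20.7). Between them, vHipp, mPFC, BLA and ACC had means of 25.5, 24.2, 23.6 and 23.1 CPM, and no neighbours among these 4 differed by adjusted p.

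The 3 link proteins had different regional orders. Hapln1, the link protein of nets on many neuron types, had a level of 30.9 to 45.9 CPM in the vHipp (median 35.5) and of 2.03 to 4.89 CPM in the DMT (median 3.56). In the mPFC, BLA, ACC and Nacc its medians were 18.8, 18.8, 18.6 and 18.2 CPM, with no neighbouring pair differing by adjusted p. Every DMT library lay below every library of the other regions, and every vHipp library above them. The regional means of vHipp and DMT were 10.0-fold apart (log2 of DMT against vHipp -3.32, SE 0.04). Hapln2 had nearly the opposite order. It was highest in the DMT (22.5 to 43.4 CPM, median 32.9), then in the Nacc (10.7 to 31.3, median 16.9), BLA (7.98 to 26.2, median 13.3), ACC (3.21 to 22.8, median 13.5), vHipp (5.69 to 17.9, median 11.3) and mPFC (3.54 to 14.5, median 6.77). mPFC against DMT was -2.24 on the log2 scale (SE 0.08), and only BLA and ACC, as neighbours, did not differ by adjusted p. The means of ACC and vHipp differed (log2 0.21, adjusted p = 0.0165, edgeR), although the ACC range held the whole vHipp range. Hapln4, which helps to place brevican in nets, was highest in the vHipp (116 to 283 CPM, median 175) and ACC (99.7 to 189, median 141). DMT (median 123), BLA (median 108) and mPFC (71.6 to 151) followed without a difference between neighbours, and the Nacc was lowest (37.3 to 156, median 68.9). Nacc against vHipp was -1.40 on the log2 scale (SE 0.06).

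Of the remaining net components, Tnr was the most even, with a 1.57-fold range of regional means. Its medians were 454 CPM in the vHipp (range 356 to 537), 389 in the mPFC (299 to 483), 375 in the ACC (138 to 433), 345 in the BLA (294 to 402), 298 in the DMT (178 to 333) and 285 in the Nacc (240 to 320). Only DMT and Nacc, as neighbours, did not differ by adjusted p (log2 0.04, SE 0.03). Has3 was highest in the Nacc, at 4.53 to 8.14 CPM (median 6.23), followed by the BLA at 2.63 to 5.5 (median 3.70). The other 4 regions had medians from 1.34 (DMT) to 2.15 (vHipp), and Nacc against DMT was 2.23 on the log2 scale (SE 0.06).

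Pvalb did not reach a 2-fold difference between any regions over all libraries. Its medians were 24.8 CPM in the ACC (16.5 to 47.9), 22.8 in the mPFC (13.3 to 32.6), 15.3 in the Nacc (6.27 to 38.2), 15.2 in the vHipp (10.2 to 25.8), 12.8 in the DMT (6.47 to 46.9) and 12 in the BLA (6.60 to 29.2). Cortical punches were highest and did not differ from each other by adjusted p (log2 0.15, SE 0.09). The largest difference was ACC against BLA, at 0.94 on the log2 scale (adjusted p = 7.2e-18, edgeR). It was 0.86 in the NoInteraction set alone and 1.05, past the 2-fold line, in the SocialInteraction set alone. Pvalb and Acan, the usual pair of net and cell, were thus ordered differently, with Acan highest and Pvalb near its lowest mean in the vHipp (15.4 CPM). Pvalb in the DMT was also the most uneven value of the panel, with a coefficient of variation of 53.3%, ahead of Acan in the mPFC (45.3%), Pvalb in the Nacc (41.2%) and Hapln2 in the mPFC (37.2%). The evenest were Ncan in the mPFC (6.38%), Vcan in the BLA (6.58%) and Bcan in the DMT (6.86%).

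The effect of early life adversity and of SAFit2 on the nets was examined in each region, within each set and over both. No member was called. Of 540 member tests (9 comparisons in 6 regions, edgeR) 0 passed an adjusted p of 0.05, where 0.00351% of all gene tests did (30 of 854784). At an unadjusted p below 0.05 there were 33 (6.11%), against 4.78% over all genes, and the smallest adjusted p was 0.346 (edgeR). DESeq2 also called 0. With the 6 regions of each mouse summed, 0 of 90 passed (4 at an unadjusted p below 0.05; DESeq2 0), where 0.00192% of all gene tests did. Since 12 Nacc libraries matched another mouse than their label, these sums may mix animals, and Nacc comparisons may mix conditions. Without the Nacc, 0 members passed in the sums as well.

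Pvalb, Acan and Has3 are singled out below, and none was near the threshold (smallest adjusted p 0.346, edgeR). They hold the largest difference and the smallest adjusted p of the condition tests. In the ACC over both sets, Pvalb was 20.3 to 47.9 CPM in Ctrl_Veh (median 25.4, n = 13), 21.2 to 37.3 in ELA_Veh (median 25.5, n = 14) and 16.5 to 26.8 in ELA_SAFit2 (median 22.3, n = 14). The ELA_SAFit2 mice were the lowest and the 3 ranges overlapped. ELA_SAFit2 against Ctrl_Veh was -0.32 on the log2 scale (SE 0.09, adjusted p = 0.357, edgeR), and -0.24 (adjusted p = 0.448, edgeR) without the ACC library of mouse 89, whose Pvalb was the highest. In the BLA of the SocialInteraction set, Pvalb was 7.29 to 20.2 CPM in Ctrl_Veh (median 9.64, n = 6), 9.34 to 29.2 in ELA_Veh (median 18.5, n = 7) and 8.17 to 15.4 in ELA_SAFit2 (median 9.82, n = 7). ELA_Veh mice reached the highest values, and all groups overlapped (ELA_Veh against Ctrl_Veh 0.66, SE 0.24, adjusted p = 0.999; ELA_SAFit2 against ELA_Veh -0.78, SE 0.24, adjusted p = 0.987; edgeR). In the NoInteraction set the same comparisons gave -0.01 (SE 0.23) and -0.05 (SE 0.23).

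Acan in the mPFC was 1.99 to 5.30 CPM in Ctrl_Veh (median 3.16), 1.86 to 7.34 in ELA_Veh (median 3.30) and 1.87 to 10.1 in ELA_SAFit2 (median 4.02) over both sets. ELA_SAFit2 against Ctrl_Veh was 0.46 (SE 0.19, adjusted p = 1.0, edgeR), and ELA_Veh against Ctrl_Veh was 0.00 (SE 0.21). In the DMT the medians of Acan were 1.40, 1.42 and 1.83 CPM, and ELA_SAFit2 against Ctrl_Veh was 0.36 (SE 0.14, adjusted p = 0.688, edgeR). Has3 in the ACC of the SocialInteraction set was 1.03 to 2.12 CPM in Ctrl_Veh (median 1.53), 1.26 to 2.55 in ELA_Veh (median 2.23) and 1.12 to 1.83 in ELA_SAFit2 (median 1.71). ELA_Veh against Ctrl_Veh was 0.40 (SE 0.15, adjusted p = 0.346, edgeR). Over both sets, ELA_Veh against Ctrl_Veh ranged over the 6 regions from 0.02 to 0.08 for Bcan (SE up to 0.07), from -0.03 to 0.03 for Ncan (SE up to 0.07), from -0.04 to 0.06 for Vcan (SE up to 0.10), from -0.05 to 0.08 for Hapln1 (SE up to 0.11) and from -0.06 to 0.07 for Tnr (SE up to 0.09). The ranges were wider for Hapln2 (-0.19 to 0.11, SE up to 0.21), Hapln4 (-0.12 to 0.11, SE up to 0.17), Has3 (-0.07 to 0.27, SE up to 0.15), Acan (-0.20 to 0.11, SE up to 0.21) and Pvalb (-0.20 to 0.32, SE up to 0.27). Whether a condition comparison differed between the sets was tested directly. Of 180 member tests 0 passed (edgeR; 5 at an unadjusted p below 0.05; smallest adjusted p 0.478), where 0.0123% of all gene tests did, and with regions summed 0 of 30 did (2 at an unadjusted p below 0.05).

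**Figure D2:**
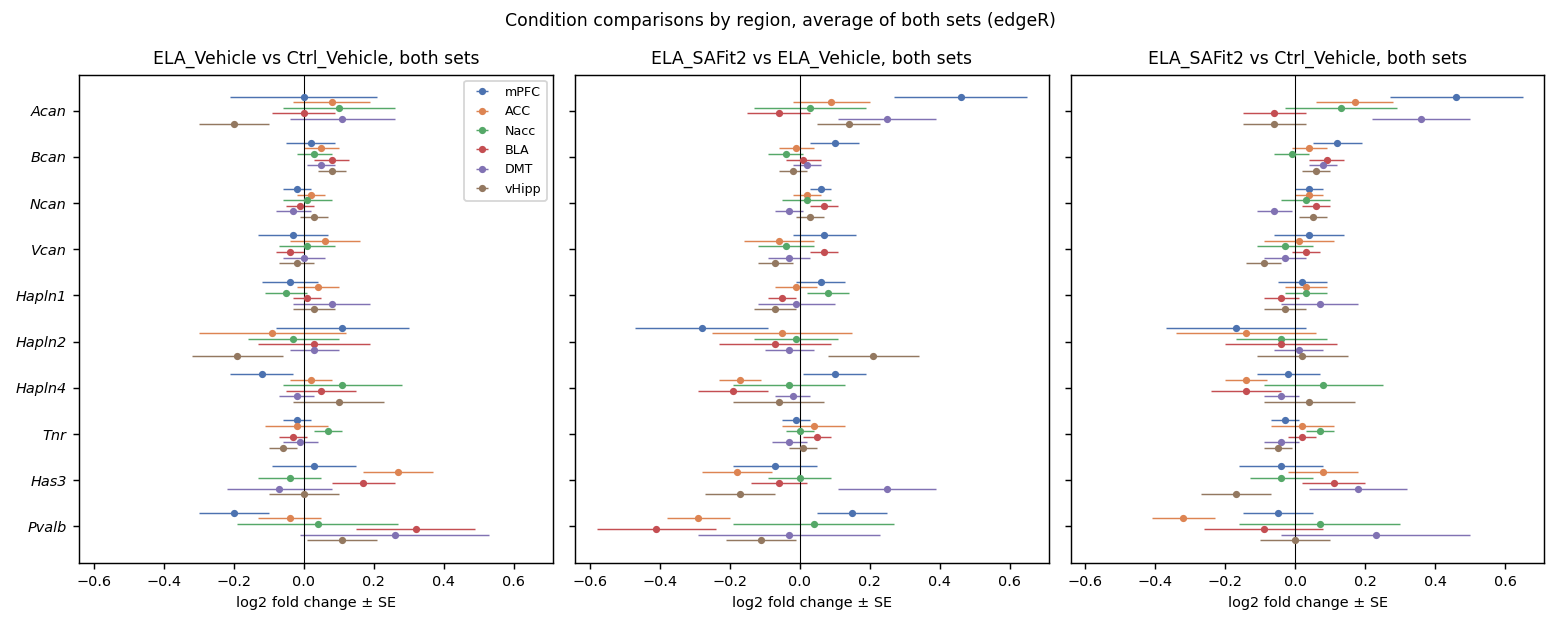
Log2 fold changes (± SE) of the 10 genes in the 3 condition comparisons, averaged over both sets, with a point per region. No point passed an adjusted p of 0.05, and the points furthest from 0 were Acan in the mPFC (0.46) and Pvalb in the BLA (-0.41).

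Mice taken after the social encounter were then compared with mice taken without one, averaged over the 3 conditions. Acan and Tnr were higher in the mPFC, the 2 called among 60 member tests. In the mPFC 7.62% of all genes tested were called, in the ACC 4.22%, in the BLA 1.54%, in the DMT 1.63%, in the vHipp 1.22% and in the Nacc 0.0% (0 of 15881 with edgeR, 417 at an unadjusted p below 0.05). At an unadjusted p below 0.05 there were 10.0% of the member tests and 13.4% of all gene tests. The smallest of the 10 members' mPFC differences was -0.04 and their median 0.06, against a median of 0.00 over all genes.

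Acan in the mPFC was 1.86 to 8.49 CPM in the NoInteraction set (median 2.76, n = 21) and 1.99 to 10.1 in the SocialInteraction set (median 4.36, n = 20). The sets overlapped, but 19 of 20 SocialInteraction mice lay above the NoInteraction median. Acan was 47.5% higher (log2 0.56, SE 0.16, adjusted p = 0.0245, edgeR). Within conditions the differences were 0.37 (SE 0.29) in Ctrl_Veh, 0.73 (SE 0.29) in ELA_Veh and 0.58 (SE 0.25) in ELA_SAFit2, none of them called, where 0.0916% of all gene tests within conditions were. Tnr in the mPFC was 299 to 414 CPM without (median 375) and 351 to 483 with social interaction (median 402). Here 16 of 20 SocialInteraction mice lay above the NoInteraction median and 6 above every NoInteraction mouse. Tnr was 8.53% higher (log2 0.12, SE 0.03, adjusted p = 0.0224, edgeR). Without mouse 59, Tnr no longer passed (0.10, adjusted p = 0.0513, edgeR). The other 8 members had mPFC differences between -0.04 and 0.15, none called.

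**Figure D3:**
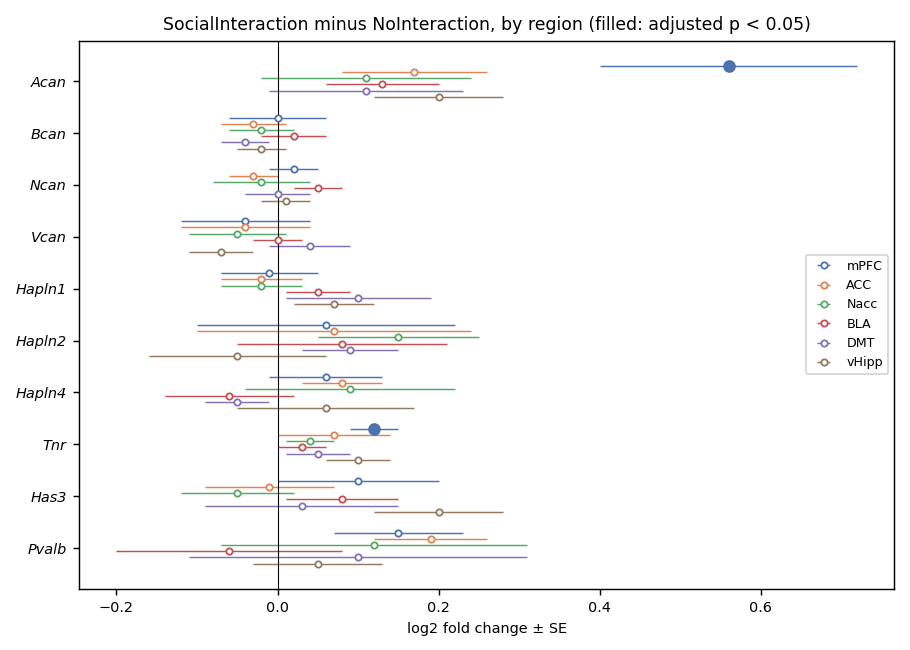
Log2 fold change (± SE) of SocialInteraction against NoInteraction for the 10 genes in 6 regions, with filled points for an adjusted p below 0.05. Acan (0.56) and Tnr (0.12) in the mPFC are the filled points, and Acan lies above 0 in each region.

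Acan had a positive difference in each of the other regions too, without passing the test. Its medians without and with social interaction were 2.46 and 2.96 CPM in the ACC, 3.58 and 4.21 in the Nacc, 3.66 and 3.71 in the BLA, 1.42 and 1.58 in the DMT and 4.55 and 5.58 in the vHipp. The largest of these differences was in the vHipp (0.20, SE 0.08, adjusted p = 0.24, edgeR). With the 6 regions of each mouse summed, Acan was 2.53 to 5.02 CPM of the genes tested in the NoInteraction set (median 3.08) and 3.21 to 4.70 in the SocialInteraction set (median 3.75). All 20 SocialInteraction mice lay above the NoInteraction median. The summed difference was 16.4% (log2 0.22, SE 0.06, adjusted p = 0.0224, edgeR), where 8.68% of all genes were called. Without the Nacc, whose 12 mismatched libraries may put tissue of another mouse into a sum, it was 0.25 (adjusted p = 0.00428, edgeR). With the mPFC left out it was 0.14 (adjusted p = 0.131, edgeR) and not called. Tnr summed was 0.06 higher (SE 0.02, adjusted p = 0.0899, edgeR), and 0.07 (adjusted p = 0.0225, edgeR) without mouse 89. In the vHipp, Tnr was 356 to 470 CPM without and 384 to 537 with social interaction (0.10, adjusted p = 0.199, edgeR). Pvalb in the ACC was 16.5 to 30.0 CPM without (median 23.5) and 19.8 to 47.9 with social interaction (median 25.2; log2 0.19, SE 0.07, adjusted p = 0.14, edgeR). Has3 in the vHipp differed by 0.20 (SE 0.08, adjusted p = 0.266, edgeR). By sign alone, 5 to 7 of 10 members were higher after social interaction in each region.

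Acan in the mPFC moved with markers of another tissue. Markers of the olfactory bulb (Doc2g, Eomes, Cdhr1, Shisa3 and Th), which adjoins the front of the cortex, were measured in every mPFC library. All 5 were summed per library, and the sums were 8.51 to 260 CPM in the NoInteraction set (median 21.5) and 13.5 to 413 in the SocialInteraction set (median 18.4). In 7 libraries (5 NoInteraction and 2 SocialInteraction) the sum was 117 to 413 CPM, against 8.51 to 106 in the rest. Acan was 3.02 to 10.1 CPM in these 7 and at most 6.01 (median 3.21) in the rest. Over the 41 mPFC libraries, with group means removed, Acan and the list correlated at r = 0.73 and rho = 0.60 (permutation test, adjusted p = 0.00013 and 0.00044 over 480 relations), and at r = 0.65 without the 2 farthest libraries. This relation was not found for Acan alone or in the mPFC alone. In the mPFC, r with the list was also 0.70 for Bcan and 0.62 for Hapln1. In the DMT it was 0.52 for Acan, 0.50 for Bcan and 0.49 for Hapln1, in the BLA 0.67 for Bcan, and each of these passed for both r and rho. The list summed to only 3.26 to 29.2 CPM in the DMT and 3.88 to 10.8 CPM in the BLA. In each of the 2 regions, 3 of its 5 genes were over 1 CPM. Whether these relations reflect bulb tissue was not tested. For Acan in the ACC r was 0.47 and rho 0.32 (permutation test, adjusted p = 0.0094 and 0.093). In the libraries outside the 7, Acan was 1.86 to 4.47 CPM without (median 2.60, n = 16) and 1.99 to 6.01 with social interaction (median 4.28, n = 18). The difference there was 0.65 (adjusted p = 0.00105, edgeR), and with the marker level as a covariate it was 0.60 (adjusted p = 0.000155, edgeR). The 7 libraries were not set off by a wide gap in the marker sums (117 against 106 CPM). Whether bulb tissue has a part in the difference was not tested. Tnr was 0.11 (adjusted p = 0.053, edgeR) without the 7 and 0.11 (adjusted p = 0.0209, edgeR) with the covariate. ELA_SAFit2 against Ctrl_Veh for Acan, 0.46 with all libraries, ranged from 0.26 to 0.47 over 6 alternatives that include these fits and was called in none.

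**Figure D4:**
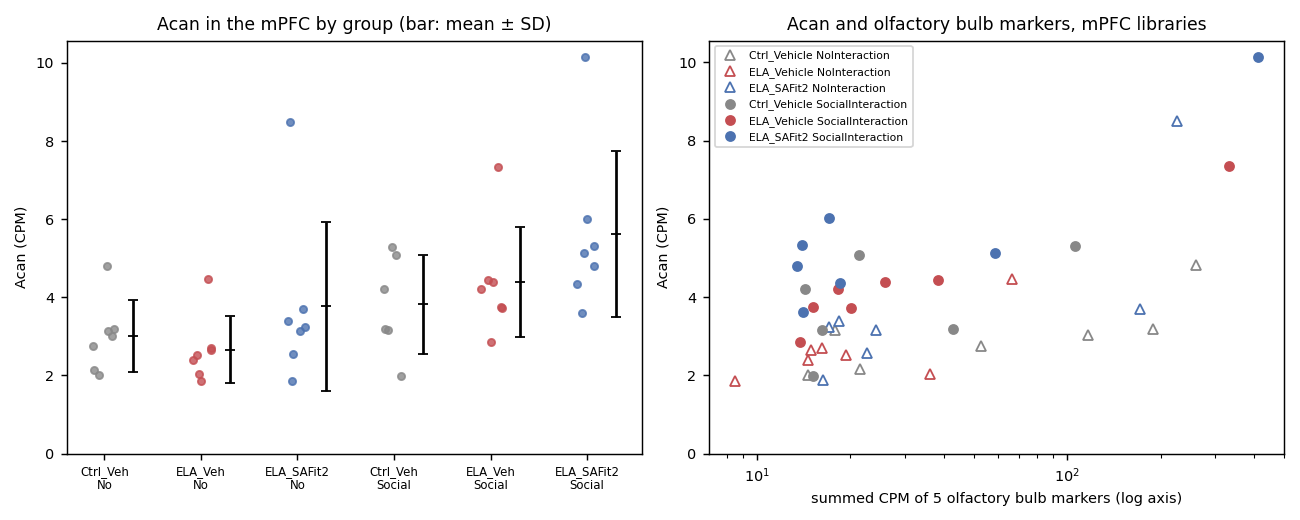
Left, Acan (CPM) in the 41 mPFC libraries by group, with a bar for the mean ± SD. Right, the same Acan values against the summed CPM of 5 olfactory bulb markers (log axis). The 3 highest Acan values (7.34, 8.49 and 10.1 CPM) lie among the 7 libraries with the highest marker sums.

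The members also varied among mice within a group, and several varied with the markers of a cell type. Relations were computed over the 41 libraries of a region with group means removed (10 genes, 8 marker lists and 6 regions, 480 relations, adjusted together, permutation tests whose smallest unadjusted p is 1e-05). All values of a library share its punch and its depth, and whether a relation reflects the share of a cell type in the punch was not tested. In the Nacc, the group means removed may mix groups, since 12 libraries there matched another mouse than their label. A gene is said to follow a list below only where the adjusted p of both r and rho was under 0.05. Hapln2 followed oligodendrocyte markers (such as Mbp and Mog) in 5 regions, with r = 0.97 in the ACC, 0.91 in the mPFC and BLA, 0.84 in the vHipp and 0.79 in the Nacc (rho 0.96, 0.87, 0.90, 0.79 and 0.80; permutation test, adjusted p = 0.00013 for each r). In the DMT, where Hapln2 was highest, r was 0.44 (rho 0.36, permutation test, adjusted p = 0.014 and 0.053) and 0.30 without the 2 farthest libraries. Bcan followed astrocyte markers in 5 regions, with r from 0.56 (ACC) to 0.90 (mPFC), and r was 0.11 in the BLA. The astrocyte list was not the only one that Bcan followed. In the mPFC it also followed markers of oligodendrocyte precursors (r = 0.81), olfactory bulb (0.70) and microglia (0.65) and was lower where glutamatergic markers were high (r = -0.77). In the BLA it followed the parvalbumin cell list (0.85) and microglial (0.77), striatal (0.75) and precursor markers (0.62), and in the Nacc the parvalbumin cell list (0.74) and precursor markers (0.63). Vcan followed markers of oligodendrocyte precursors with r = 0.85 in the vHipp, 0.78 in the ACC, 0.63 in the DMT and 0.60 in the mPFC, against 0.27 in the BLA and -0.33 in the Nacc. It also varied with other lists. Across regions its r ran from -0.48 to 0.69 with the parvalbumin cell list. It ran from -0.25 to 0.61 with striatal and from -0.21 to 0.56 with astrocyte markers.

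Pvalb followed a list of 14 genes of parvalbumin cells (such as Gad1, Lhx6 and Syt2, without Pvalb) in the 4 regions outside the cortex. The relation was r = 0.91 in the Nacc, 0.76 in the DMT, 0.69 in the vHipp and 0.47 in the BLA (rho 0.94, 0.76, 0.73 and 0.42; permutation test, adjusted p = 0.0068 or less for each r), and 0.12 in the mPFC and 0.18 in the ACC, where it did not pass. The difference in r between regions was not tested. Acan followed the same list with r = 0.84 in the Nacc, 0.61 in the DMT, 0.45 in the mPFC and 0.44 in the ACC, and did not pass in the BLA (0.31) or vHipp (0.10). Other members varied with this list as well. Over the regions r ran from 0.25 to 0.58 for Hapln2, from -0.17 to 0.60 for Has3 and from 0.12 to 0.85 for Bcan. Several genes of this list, such as Gad1 and Tac1, are also expressed by striatal projection neurons. Pvalb varied with other lists too. Across regions its r ran from 0.10 to 0.66 with oligodendrocyte and from -0.39 to 0.56 with glutamatergic markers. For Acan r ran from 0.21 to 0.55 with astrocyte, from -0.02 to 0.60 with precursor and from -0.56 to 0.13 with glutamatergic markers. Hapln4 varied inversely with striatal markers, with r = -0.71 in the BLA, -0.70 in the vHipp and -0.63 in the Nacc (rho -0.68, -0.68 and -0.51). In the vHipp these markers summed to only 145 to 184 CPM. Hapln4 varied with other lists as well. Its r over the regions ran from -0.13 to 0.75 with glutamatergic and from -0.65 to 0.43 with microglial markers. With the parvalbumin cell list it ran from -0.61 to 0.72. Has3 followed striatal markers in the BLA (r = 0.64, rho 0.62), Nacc (r = 0.55, rho 0.46) and mPFC (r = 0.49, rho 0.49). For Tnr in the mPFC, r with the 8 lists lay between -0.33 and 0.29, but its relations were stronger elsewhere. Over the regions r of Tnr ran from -0.71 to -0.04 with oligodendrocyte and from -0.67 to 0.43 with striatal markers. With the parvalbumin cell list it ran from -0.61 to 0.21.

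**Figure D5:**
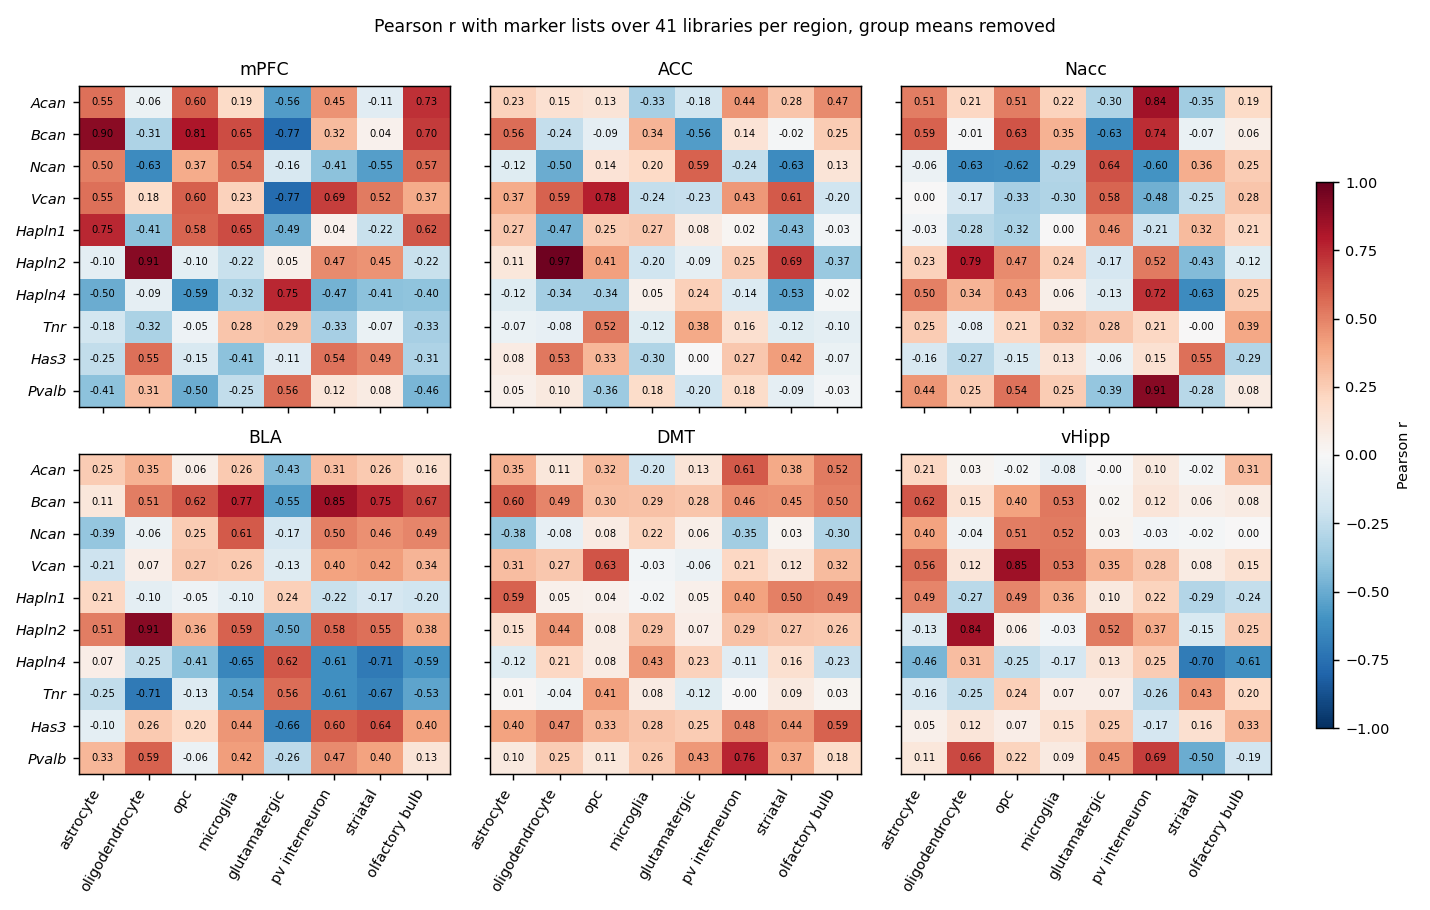
Pearson r between each of the 10 genes and 8 marker lists, a panel per region, over 41 libraries with group means removed. The Hapln2 and oligodendrocyte cell is dark red in 5 of 6 panels (0.79 to 0.97) and paler in the DMT (0.44), and Pvalb with the parvalbumin cell list is dark red in the Nacc (0.91) and pale in the mPFC (0.12).

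The genes most like each member were sought among 13764 genes, first over the libraries of all regions together, where region differences dominate. Hapln1 was closest to Unc5a (Pearson r = 0.98), Hapln2 to Gjb1, a connexin of myelinating glia (0.96), Has3 to Arel1 (0.94), Ncan to Ppp2r2c (0.92), Tnr to Ncor1 (0.90), Hapln4 to Nefl, the neurofilament light chain (0.89), Bcan to Apoe (0.83), Acan to Eml5 (0.80), Vcan to Adam12 (0.75) and Pvalb to Nkiras1 (0.65). After removal of the mean of each region, condition and set, Hapln2 was closest to the myelin gene Mobp (0.92) and Hapln4 again to Nefl (0.87). Bcan was closest to Axl (0.78), Tnr to Wdfy3 (0.78), Ncan to Adgrl1 (0.73), Pvalb to the neurofilament gene Nefm (0.67), Vcan to Notch1 (0.63), Acan to Rassf4 (0.62), Hapln1 to Dab1 (0.55) and Has3 to Bcl11b (0.49). Among members, within groups, Hapln4 and Pvalb were the most alike (0.49), followed by Acan and Bcan (0.41) and Acan and Pvalb (0.37). The neighbouring genes were not alike in this sense, with 0.06 for Bcan and Hapln2, -0.14 for Ncan and Hapln4 and 0.23 for Vcan and Hapln1.

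Genes that build, cut or read the same matrix were followed in 6 further lists. They hold other backbone and receptor genes (9 of 9 measured), chondroitin sulfate synthesis (19 of 20), remodelling enzymes and inhibitors (23 of 23), net receptors and cargo (9 of 9), parvalbumin cell genes (14 of 14) and other interneuron genes (8 of 8). In the condition comparisons 0 genes of any list passed in a region or with regions summed (edgeR). After social interaction, tests over the 6 regions that passed numbered 5 of 54 in the backbone list (3 higher, 2 lower), 1 of 114 in synthesis, 7 of 136 in remodelling (2 higher, 5 lower), 3 of 53 in receptors and cargo and 0 in both interneuron lists (84 and 48 tests), beside 1.22% to 7.62% of all genes per region and 0.0% in the Nacc. Nptx2, a pentraxin that nets retain at synapses of parvalbumin cells, rose in the mPFC (log2 0.88, SE 0.08), ACC (0.57, SE 0.07) and BLA (0.56, SE 0.08; adjusted p = 0.000101 or less, edgeR). It was the only gene of 9 called in its list. Of the backbone list, Cspg4, the proteoglycan NG2 of oligodendrocyte precursors, rose in the mPFC (0.21), ACC (0.16) and BLA (0.14), and Cd44, a hyaluronan receptor, fell by 0.44 in the mPFC and by 0.27 in the ACC. Of the 23 remodelling genes, Mmp14, a membrane-bound metalloproteinase, fell in 5 regions, by 0.39 (mPFC), 0.36 (ACC), 0.35 (DMT), 0.26 (BLA) and 0.24 (vHipp), and Mmp17 rose in the ACC (0.13) and vHipp (0.19). Of the synthesis list Csgalnact1 fell by 0.22 in the vHipp (adjusted p = 0.0464, edgeR). With the regions of each mouse summed, where 8.68% of all genes were called, Nptx2 (0.45), Cspg4 (0.14), Pthlh of the parvalbumin cell list (0.22), Mmp17 (0.09) and Timp3, an inhibitor of metalloproteinases (0.10), rose. Mmp14 fell by 0.29, the hyaluronidase gene Hyal2 by 0.06 and Chpf2, a chondroitin polymerising factor, by 0.05 (adjusted p = 0.0305 or less for all 8, edgeR). The list medians over regions lay between -0.04 and 0.04, against a median of all genes of 0.00.

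Between regions, called differences made up 31 of 135 tests in the backbone list, 34 of 285 in synthesis, 82 of 345 in remodelling, 50 of 135 in receptors and cargo, 84 of 210 in parvalbumin cell genes and 70 of 120 in other interneuron genes, beside 23 of 150 for the members and 14.3% of all gene tests. Hapln1 was lowest in the DMT, and the largest differences of 4 lists also had the DMT at their low end. Chst15, a chondroitin sulfotransferase, was 6.45 CPM in the DMT and higher by 4.06 on the log2 scale in the Nacc, Mmp17 was 252 in the ACC and 21 in the DMT (3.59), Lhx6 was 51.0 in the Nacc and 0.499 in the DMT (6.58) and Vip was 44.2 in the mPFC and 0.164 in the DMT (7.97). Tnc, the tenascin related to Tnr, was 45.6 CPM in the DMT and 3.11 in the Nacc (3.87). Otx2, a homeoprotein taken up by nets and made in choroid plexus, is itself 1 of the 5 choroid plexus markers found in BLA punches. It was 14.6 CPM in the BLA and 0.0736 in the ACC (7.42). Next to these stood, in the backbone list, Crtac1 (higher in the vHipp than in the DMT by 2.10) and Has1, another hyaluronan synthase (Nacc over vHipp, 2.10). In synthesis they were Chsy3 (ACC over DMT, 2.79) and Ust (vHipp over ACC, 2.19), both enzymes that act on chondroitin sulfate, and in remodelling the proteases Adamts15 (DMT over Nacc, 3.46) and Adamts9 (vHipp over ACC, 3.05). Among receptors and cargo they were Sema3a, a repellent axon guidance cue that nets bind (BLA over DMT, 4.74), and Rtn4r, the Nogo receptor (ACC over Nacc, 2.75). In the interneuron lists they were Tac1 (Nacc over DMT, 5.82), Slc32a1, the vesicular GABA transporter (Nacc over DMT, 5.38), Lamp5 (mPFC over DMT, 6.74) and Calb2, which encodes calretinin (DMT over ACC, 5.22).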

How the data were processed

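The deposited table holds salmon's estimated counts summed per gene, as its name tells, which the authors deposited without scaling for depth or length. Per the labels, the processing notes also name STAR, DESeq2 and the build GRCm39 (mm39). Versions of salmon, STAR and DESeq2 and the annotation release are not given in the sources used here. The libraries were poly-A selected and made with a stranded kit, and whether counting used strand is not given. Of the values, 12.12% were not whole, and all were rounded. Identifiers were matched without version to GENCODE M21 (52073 of 56691; 978 more typed through RefSeq symbols, 3640 left out), which gave GRCm38 positions and exon lengths. That build differs from the authors', so positions were not used for counting.

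Groups, sets and mouse numbers came from the labels. Within a region, a protein-coding gene was tested if its counts summed to 100 or more and 6 or more libraries held a count (15722 to 15992 genes; 17381 between regions and with regions summed). Counts were tested with edgeR 4.0.16 in R 4.3.3 (TMM, quasi-likelihood test, two-sided, Benjamini-Hochberg adjustment over all genes tested), with 6 groups in 1 model and calls at an adjusted p of 0.05. The fit between regions had the mouse number as a block and also required a log2 fold change of at least 1. The number pairs punches of the same animal, and in 234 of 246 libraries genes that differ between mice matched the labelled mouse (the other 12 are from the Nacc). DESeq2 1.42.0, other size factors and filters, and left-out libraries were the alternatives. Scripts were tested on simulated data. Correlations used log2 of CPM with a pseudocount of 0.5 and 100000 permutations (NumPy 2.4.6, SciPy 1.17.1).

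The 10 genes and the further lists were chosen with earlier results of these data known, and olfactory bulb libraries, mouse 89 and the mPFC were left out as alternatives chosen after seeing the data. All 10 members are named. Of the other lists, up to 3 genes per comparison that passed are named (between regions the 3 largest), and for likeness the closest genes, of which the text gives the first. Sequencing depth limits single libraries for Acan and Has3 most, at 20 counts or more.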

Additional observations from a re-analysis of the deposited data

Results flagged for a closer look

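For each member, region and group of 6 or 7 mice, the highest and lowest mouse was compared with the others by its gap to the nearest one relative to the range (Dixon's criterion). Of 360 groups 30 were set apart (8.33%, where chance gives about 5%), 24 by their highest and 6 by their lowest mouse, in 24 libraries. Values are CPM, with the nearest other mouse of the group beside each.

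Acan in the mPFC was set apart in 5 of its 6 groups, each time by the highest mouse. It was 10.1 in mouse 79 (nearest 6.01), 8.49 in mouse 15 (3.69), 7.34 in mouse 93 (4.44), 4.81 in mouse 65 (3.18) and 4.47 in mouse 43 (2.71). The first 4 of these are among the 7 mPFC libraries with the highest olfactory bulb marker sums, and mouse 43 is not. Acan was also high in the ACC of mouse 15 (4.06, nearest 2.99) and the DMT of mouse 61 (3.37, nearest 2.14).

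Mice 79, 93, 43 and 41 were high in further mPFC values. Vcan was 34.0 in mouse 79 (nearest 25.6), Hapln1 25.4 in mouse 93 (19.2), Bcan 217 in mouse 43 (162) and Ncan 304 in mouse 41 (276). Mouse 79 was also high in the BLA, with Vcan at 27.5 (24.6) and Tnr at 402 (358).

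In the ACC, mouse 89 had the lowest Tnr (138, nearest 369) and the highest Pvalb (47.9, nearest 31.8) of its group, in the library that stood furthest from its region. Mouse 69 also had low Tnr (216, nearest 317). Vcan was high in mice 37 (37, nearest 25.7), 65 (32.9, nearest 23.4) and 61 (31.2, nearest 24.5), and in mouse 61 Ncan was low (226, nearest 260). Hapln4 was high in mouse 41 (175, nearest 147).

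In the Nacc, Vcan was 48.8 in mouse 99 (nearest 36.9), Hapln2 31.3 in mouse 69 (18.6) and Ncan 252 in mouse 65 (224). Since 12 Nacc libraries matched another mouse than their label, mice and groups named for the Nacc may be wrong. In the DMT, Tnr was low in mouse 31 (178, nearest 301), Ncan was low in mouse 15 (118, nearest 155) and Hapln2 was high in an ELA_Veh mouse of the NoInteraction set (41.4, nearest 33.2). Hapln2 was 26.2 in the BLA of mouse 87 (nearest 14.9). In the vHipp, Hapln1 was 39.3 in an ELA_SAFit2 mouse of the NoInteraction set (nearest 34.5) and Has3 was low in mouse 49 (1.69, nearest 2.21). The causes were not tested.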

How the results depend on the processing

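The 0 members called by condition stayed 0 under each alternative counted (mice were left out in turn only where a member was called). Direction was checked only for selected comparisons of single members, and 0 of these changed direction. For members by condition, the mPFC fit with the olfactory bulb covariate was not among those counted. Of the counts, 34 alternatives stayed within 1.5 times and 3 did not. Members called after social interaction fell from 2 to 1 (Acan) in the mPFC without the 7 libraries high in olfactory bulb markers, the 1 called with regions summed fell to 0 without the mPFC, and members called between regions rose from 23 to 125 with no fold threshold. With the olfactory bulb level as a covariate in the mPFC 3 passed, with Acan within ELA_SAFit2 added. Leaving out each mouse in turn gave 1 to 2 calls after social interaction (1 without mouse 59) and 1 to 2 with regions summed (2 without mouse 89), and Acan in the mPFC passed in all 41 refits (log2 0.48 to 0.68). The fit between regions without the mouse block called 23, all 23 shared with the blocked fit, and the NoInteraction set alone called 21 and the SocialInteraction set 25. Fits within a region and with regions summed hold each mouse once by its label, so no block applies there (sums that include the 12 mismatched Nacc libraries may mix animals). In the ACC without mouse 89, 1209 of all genes were called after social interaction in place of 664. The causes were not tested. Groups of 6 or 7 mice and the low counts of Acan and Has3 limit what a difference between conditions must reach.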
